A study of Mus musculus with 20 samples.

Results

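The ADAM family comprises membrane proteins with a metalloprotease domain and a disintegrin domain. Its members were taken as all gene symbols made of Adam, a number and at most 1 further letter, which leaves out the related Adamts genes, and 32 of the 23235 genes in the deposited expression table met this rule. They were set against each other in mouse spermatocytes sorted at 3 stages, from Cxxc1-null and WT testes. Cxxc1 encodes a CpG-binding protein that recruits the enzymes that trimethylate histone H3 at lysine 4, and the study addressed what its loss does to this mark and to meiosis. The 12 RNA libraries formed 6 groups of 2: Cxxc1-null and WT cells labelled pachytene, diplotene and meiosis II spermatocytes. All came from adult male mice on a C57BL/6 background, and each library was prepared by the full-length Smart-seq2 method, primed on poly(A) tails, from 500 cells sorted by flow cytometry. The deleted allele, any Cre driver and the exact age are not given in the sources used here, and 8 further libraries of H3K4me3 were not analysed here. Whether the libraries of a group derive from different animals is not in the labels; a p-value here therefore reflects library-to-library spread alone, possibly technical.

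Most ADAM genes of rodents are transcribed in male germ cells. Several of their proteins are placed on the sperm head, several lack the residues of an active protease, and some act in pairs and in a processing chain. Fertilin beta (Adam2) pairs with the fertilin alpha proteins (Adam1a and Adam1b). Cyritestin (Adam3) depends on the pairing of Adam2 with Adam1a and is needed for sperm to pass into the oviduct. The broadly expressed members Adam9, Adam10, Adam15 and Adam17 are active sheddases of somatic cells, among which Adam10 cleaves Notch and Adam17 releases tumour necrosis factor. From general knowledge of mouse tissues, 19 members were classed as testis germ cell genes, 4 as broadly expressed, 8 as restricted to somatic tissues (Adam8, Adam11, Adam12, Adam19, Adam22, Adam23, Adam28 and Adam33) and 1, Adam7, as an epididymis gene.

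Promoter windows of 300 bases, from 250 before to 50 after the annotated start, were found in the RefSeq table for GRCm38.p6 for 16 of the 32 members, 9 of them testis genes. The stretches shown here are the 150 bases upstream of the start of 4 testis genes whose levels differ in the comparisons that follow and of 2 broadly expressed sheddases. They are written 5′ to 3′ on the strand of the gene, with capitals marking CpG dinucleotides, which the CXXC domain of Cxxc1 is known to bind when unmethylated. Adam1b lies at chr5:121503436-121503585 on the minus strand, and its neighbour Adam1a at chr5:121521696-121521845, also on the minus strand. Adam21 lies at chr12:81568475-81568624 (minus), Adam29 at chr8:55906965-55907114 (minus), Adam10 at chr9:70678832-70678981 (plus) and Adam17 at chr12:21373633-21373782 (minus).
Adam1b: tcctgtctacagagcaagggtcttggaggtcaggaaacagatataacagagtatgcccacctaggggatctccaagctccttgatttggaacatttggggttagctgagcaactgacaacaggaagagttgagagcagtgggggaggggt
Adam1a: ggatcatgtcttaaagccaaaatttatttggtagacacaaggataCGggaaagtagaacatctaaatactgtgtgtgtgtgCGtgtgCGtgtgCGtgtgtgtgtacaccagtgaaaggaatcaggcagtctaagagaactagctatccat
Adam21: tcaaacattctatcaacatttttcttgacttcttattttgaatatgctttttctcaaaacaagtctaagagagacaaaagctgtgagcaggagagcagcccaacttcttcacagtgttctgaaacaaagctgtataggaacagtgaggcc
Adam29: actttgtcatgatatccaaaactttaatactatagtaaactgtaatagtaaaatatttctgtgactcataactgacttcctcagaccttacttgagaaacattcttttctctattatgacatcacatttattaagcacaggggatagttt
Adam10: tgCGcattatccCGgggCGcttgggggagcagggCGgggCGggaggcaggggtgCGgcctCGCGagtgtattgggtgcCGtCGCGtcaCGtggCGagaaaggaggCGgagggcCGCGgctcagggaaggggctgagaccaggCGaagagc
Adam17: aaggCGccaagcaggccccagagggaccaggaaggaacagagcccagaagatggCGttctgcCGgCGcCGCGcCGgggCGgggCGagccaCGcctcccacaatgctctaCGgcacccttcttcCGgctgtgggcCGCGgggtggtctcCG
The stretches of Adam1b, Adam21 and Adam29 held 0 CpG, that of Adam1a held 4, and those of Adam10 and Adam17 held 17 and 15. Over the full windows, the 9 testis genes had 0 to 4 CpG (median 1) and the 3 broadly expressed members with a window had 25 to 32 (median 30). Of these 9, 8 are testis genes low in pachytene cells, a pattern described below, and 1, Adam1b, is abundant there. The other testis genes abundant in pachytene had no window, so their CpG content is not known here. The median over all 32851 windows of the table was 7, and 47.9% of them held 6 or fewer. Median GC content was 39.67% in the testis genes, 70.0% in the broadly expressed ones and 52.67% over all windows. The somatic members spread between these: Adam8 had 6 CpG, the 3 windows of Adam19 had 5, 11 and 5, Adam22 had 19 and Adam23 had 31.

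**Figure D1:**
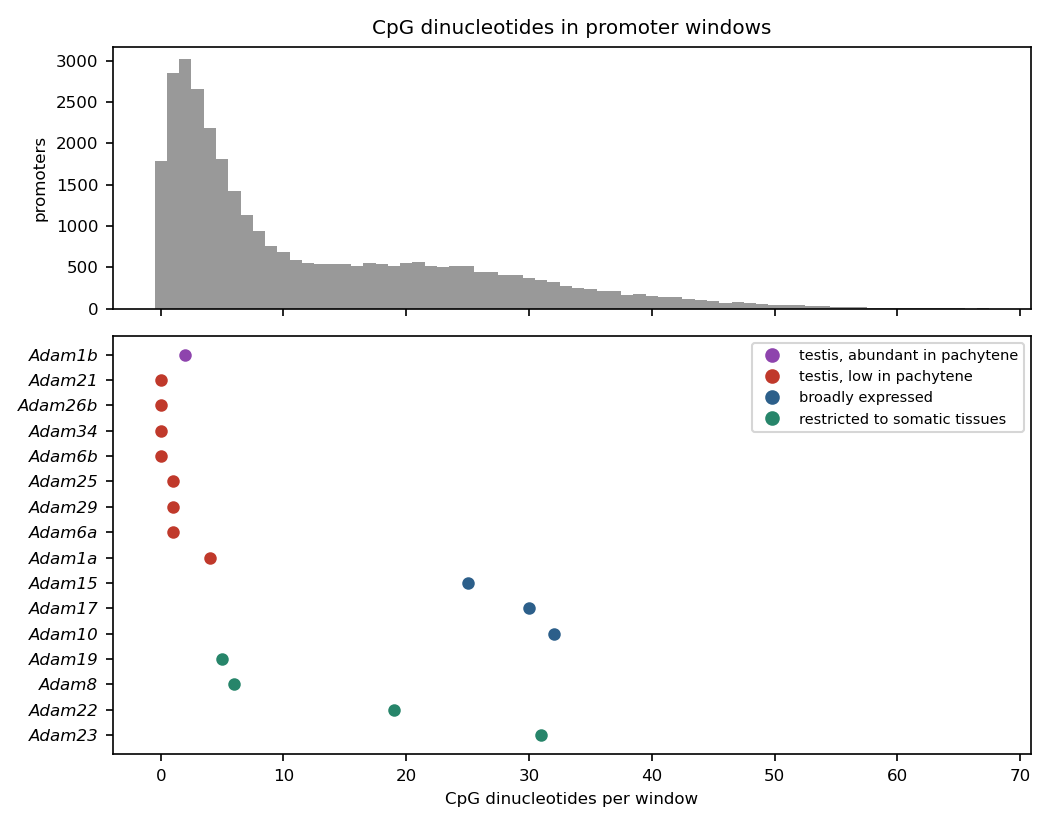
CpG dinucleotides per 300-base promoter window (x axis) for all windows of the RefSeq table (histogram, number of windows) and for the 16 members with a window, by class. The 9 testis genes lie at 0 to 4, and Adam15, Adam17 and Adam10 lie at 25, 30 and 32. Among the 9 testis genes, only Adam1b is abundant in pachytene cells.

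Short motifs were searched on both strands of the same windows. The cyclic AMP response element TGACGTCA was in 0 of 9 testis windows and 0 of 3 broadly expressed ones, against 1.79% of all windows. The core AACTG bound by MYB proteins was in 5 of 9 and 1 of 3, against 44.8% of all windows. The letters TATAAA were in 3 of 9 (Adam29, Adam6a and Adam6b) and 0 of 3, against 13.62%, and CCAAT was in 5 of 9 and 2 of 3, against 37.41%. Each motif was searched separately, and the matches are descriptions of these letters only.

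The libraries differed in stage position as well as in genotype. Between 9838 and 11624 genes reached 1 FPKM (fragments per unit of transcript length and of library size) in a library. Cxxc1 itself had 9.19 and 9.57 FPKM in Cxxc1-null against 11.7 and 17.3 FPKM in WT pachytene libraries, 9.57 and 8.29 against 13.7 and 17.6 in diplotene, and 3.10 and 2.02 against 12.5 and 12.8 in meiosis II. Its level was lower in all Cxxc1-null libraries. Among the single stages limma called it only in meiosis II, by -1.96 ± 0.25 on the log2 scale (SE, Benjamini-Hochberg adjusted p = 0.0024). Averaged over the stages limma called it as well (-1.08 ± 0.15, adjusted p = 0.0017). Of 9 pachytene marker genes the summed level was 4474 to 4644 FPKM in Cxxc1-null and 3344 to 6243 in WT pachytene libraries, and lower in every later library. Among 14 genes of round spermatids, all 14 rose between diplotene and meiosis II in both genotypes, and their sum in meiosis II was 2445 to 4930 FPKM in Cxxc1-null and 7883 to 10851 FPKM in WT. Sertoli cell markers (9 genes, led by Clu) summed to 226 to 236 FPKM in Cxxc1-null and 237 to 321 FPKM in WT meiosis II libraries, against 3.20 to 30.0 FPKM in the other 8. For 8 of the 9, Sox9 and Wt1 among them, the lowest meiosis II library lay above every other library; Amh, made mainly by immature Sertoli cells, was at or under 0.144 FPKM in all 12. In these small bulk samples, fewer cells of a type and less RNA per cell cannot be told apart.

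One library of each genotype stood apart. Over the 12956 genes tested, replicate 2 of Cxxc1-null diplotene had a correlation of 0.891 with the mean of WT meiosis II, whereas the other 3 diplotene libraries had 0.834 to 0.849. In it 11 of the 12 testis ADAM genes that are low in pachytene cells were higher than in replicate 1, and their summed level was 28.1 FPKM against 10.7 FPKM. Replicate 2 of WT pachytene had a correlation of 0.955 with the mean of WT diplotene, whereas the other 3 pachytene libraries had 0.914 to 0.93. Results for the members that rest on these libraries are given with and without them, and those for partner genes with them only.

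The testis genes carried nearly all ADAM transcripts. In pachytene the 19 testis members summed to 1116 and 792 FPKM in Cxxc1-null and to 1008 and 1099 FPKM in WT libraries. In diplotene they summed to 2004 and 1475 FPKM in Cxxc1-null and 2592 and 1617 FPKM in WT, and in meiosis II to 2105 and 1704 FPKM in Cxxc1-null and 2645 and 2133 FPKM in WT. The sums of the genotypes overlapped in pachytene and in diplotene, and in meiosis II both Cxxc1-null sums lay under both WT sums. The 4 broadly expressed members summed to 4.34 to 11.5 FPKM and the 8 somatic ones to 2.24 to 4.40 FPKM over all 12 libraries. All members together made up 0.0870% to 0.385% of the summed FPKM of a library.

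**Figure D2:**
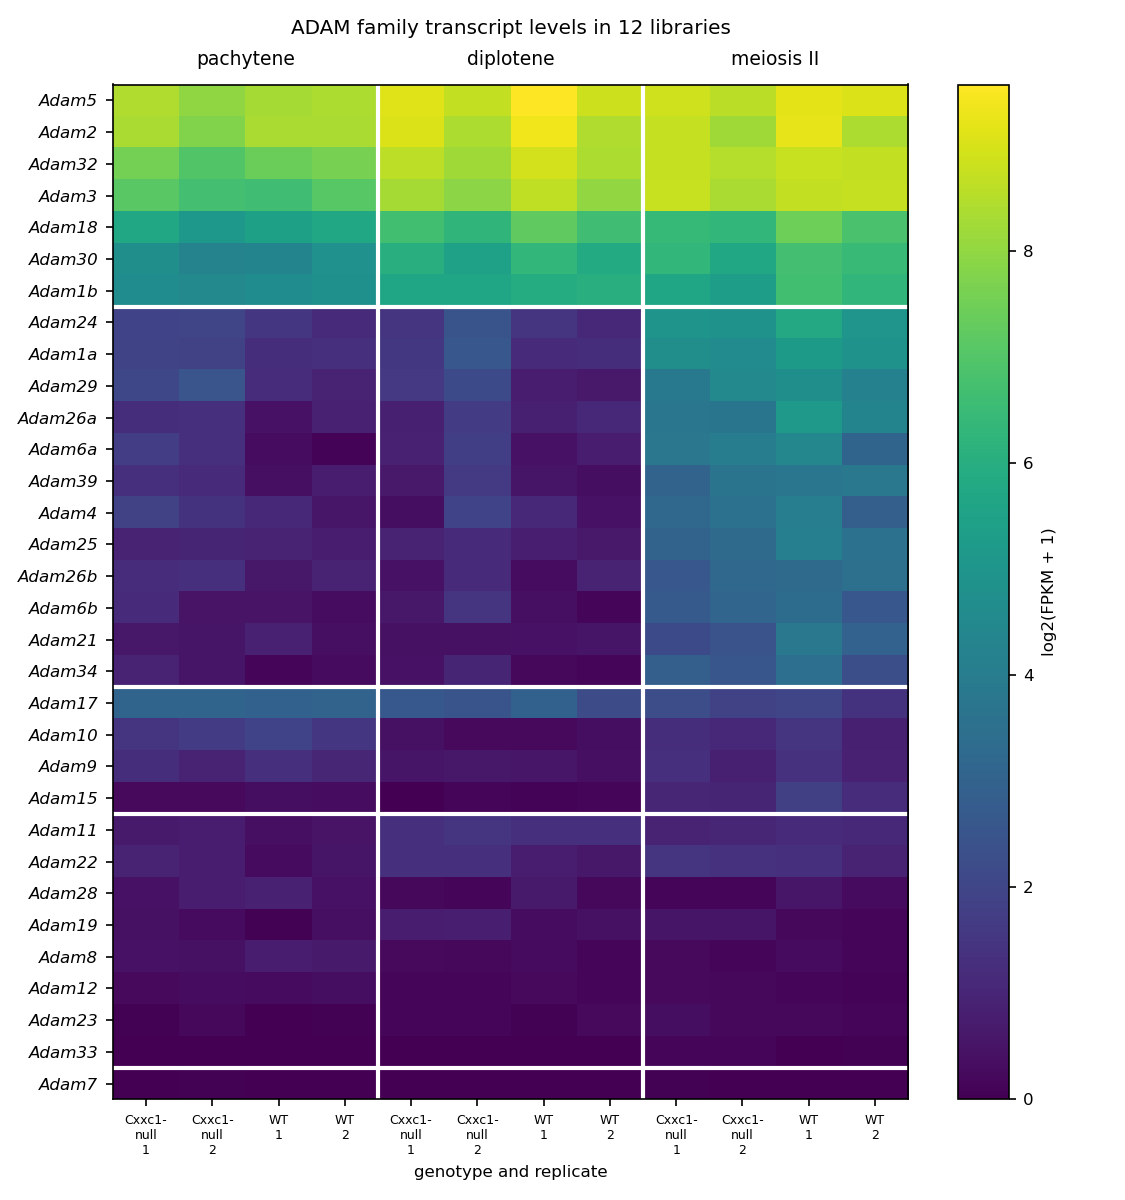
Level of each of the 32 ADAM genes, as log2(FPKM + 1), in the 12 libraries (columns, Cxxc1-null left of WT within each stage). From the top, 7 testis genes are bright at all stages, 12 testis genes turn bright in meiosis II only, and the broadly expressed, somatic and epididymis members stay dark apart from Adam17.

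The 19 testis genes fell into 2 level patterns in these libraries, a grouping made after their values were seen and therefore given without a test. Adam1b, Adam2, Adam3, Adam5, Adam18, Adam30 and Adam32 had at least 10 FPKM in each of the 4 pachytene libraries, with a range of 18.2 to 339 FPKM. The other 12 (Adam1a, Adam4, Adam6a, Adam6b, Adam21, Adam24, Adam25, Adam26a, Adam26b, Adam29, Adam34 and Adam39) had 0.0699 to 4.74 FPKM there. No testis gene lay between 4.74 and 18.2 FPKM in pachytene. Neighbouring testis genes mostly shared a pattern. Adam1b and Adam1a, adjacent on chromosome 5, are the exception. On chromosome 8, which holds 4 of the 7 abundant and 7 of the 12 low genes, Adam18, Adam3, Adam5 and Adam32 stand side by side with the broadly expressed Adam9 next to them. The low genes Adam24, Adam25 and Adam39, interrupted by Adam20, and Adam26b, Adam26a and Adam34, interrupted by Adam34l, form 2 further runs on chromosome 8. Adam6a and Adam6b, Adam26a and Adam26b, Adam34 and Adam34l, and Adam1a and Adam1b are near copies whose reads the counting may have shared, so the split of signal within each pair is uncertain.

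Adam5, whose protein is a catalytically inactive sperm surface member, and Adam2 were the most abundant. Adam5 had 339 and 254 FPKM in Cxxc1-null against 312 and 332 FPKM in WT pachytene, 543 and 412 against 758 and 453 in diplotene, and 475 and 383 against 573 and 532 in meiosis II. Adam2 had 327 and 215 FPKM in Cxxc1-null against 330 and 328 FPKM in WT pachytene, 535 and 335 against 650 and 345 in diplotene, and 422 and 296 against 595 and 331 in meiosis II. The genotypes overlapped in pachytene and diplotene for Adam5 and in diplotene and meiosis II for Adam2, and elsewhere the higher Cxxc1-null value was under the lower WT value. Adam3 (cyritestin) had 138 and 104 FPKM in Cxxc1-null against 99.1 and 134 FPKM in WT pachytene, 312 and 236 against 406 and 255 in diplotene, and 431 and 327 against 408 and 421 in meiosis II. Its genotypes overlapped at all 3 stages, and its lowest values were all in pachytene. Adam32 lay at 126 to 193 FPKM in pachytene, 293 to 481 FPKM in diplotene and 365 to 430 FPKM in meiosis II, taking both genotypes together. Adam18 and Adam30, further testis members, were lower, at 33.2 to 52.6 FPKM and 18.2 to 27.5 FPKM in pachytene.

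From pachytene to diplotene 5 of the 7 abundant testis genes rose in Cxxc1-null cells and 6 of the 7 in WT cells, and none of the low ones passed the test. The split was made from the same pachytene values that enter this step, so these counts by pattern are descriptive. Adam2 passed in neither genotype and Adam5 in WT cells only. In Cxxc1-null cells limma called 7 members between diplotene and pachytene, 6 higher and 1 lower, against a background of 29.3% of all genes tested (11.9% higher and 17.4% lower). In WT cells it called 9 members, 7 higher and 2 lower, against 26.5% (9.08% higher and 17.4% lower). In both genotypes Adam1b, Adam3, Adam18, Adam30 and Adam32 rose. In Cxxc1-null cells the largest of these log2 changes were 1.25 ± 0.31 for Adam30 (adjusted p = 0.016), 1.17 ± 0.28 for Adam3 (0.015) and 1.13 ± 0.26 for Adam32 (0.012), and the smallest p was that of Adam1b (1.09 ± 0.20, 0.0063), with Adam18 at 1.06 ± 0.31 (0.029). In WT cells they were 1.51 ± 0.31 for Adam30 (0.0078), 1.48 ± 0.28 for Adam3 (0.0058), 1.37 ± 0.31 for Adam18 (0.011), 1.24 ± 0.20 for Adam1b (0.0029) and 1.14 ± 0.26 for Adam32 (0.011). Adam5 also rose in WT cells, by 0.86 ± 0.27 (0.042), and was at 0.69 ± 0.27 in Cxxc1-null cells (0.084); the test of the difference between these changes gave an adjusted p of 1. The means of the 7 abundant genes in diplotene were 1.6 to 2.46 times those in pachytene in Cxxc1-null cells and 1.51 to 2.92 times in WT cells, and 1.83 to 2.94 times and 1.51 to 3.55 times with replicate 1 alone in place of the library that stood apart. Without replicate 2 of Cxxc1-null pachytene, 0 of the 7 Cxxc1-null calls remained, and 2 remained without replicate 1 of Cxxc1-null diplotene. Of the 9 WT calls, 4 remained without replicate 1 of WT pachytene or without replicate 1 of WT diplotene, and 0 when the 2 WT groups were fitted alone.

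Some members outside the testis class changed at the same step. Adam11, a brain member without protease activity, had 1.49 and 1.73 FPKM in Cxxc1-null diplotene against 0.609 and 0.712 FPKM in Cxxc1-null pachytene, and 1.45 and 1.5 FPKM in WT diplotene against 0.317 and 0.401 FPKM in WT pachytene. No pachytene library reached the lowest diplotene value, and the gene rose by 0.65 ± 0.15 in Cxxc1-null (adjusted p = 0.013) and 0.86 ± 0.15 in WT cells (0.0039). Adam10 had 0.345 and 0.192 FPKM in Cxxc1-null diplotene against 1.70 and 2.19 FPKM in Cxxc1-null pachytene, and 0.195 and 0.286 FPKM in WT diplotene against 2.78 and 1.83 FPKM in WT pachytene. It fell by 1.21 ± 0.23 on the log2(FPKM + 1) scale in Cxxc1-null cells (0.0067) and by 1.40 ± 0.23 in WT cells (0.0029). This scale understates changes of genes at such levels. Adam9, a sheddase next to Adam32, fell by 0.70 ± 0.23 in WT cells (0.049) and was at -0.50 ± 0.23 in Cxxc1-null cells (0.13); the call was held in 8 of the 22 alternatives that gave a value, with adjusted p of 0.017 to 0.24.

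From diplotene to meiosis II the pattern was the reverse: all 12 low testis genes rose in both genotypes and none of the 7 abundant ones passed the test. Because the split into low and abundant genes was made after these values were seen, the counts by pattern are descriptive. limma called 14 members higher and 0 lower in Cxxc1-null cells, against a background of 44.1% of all genes tested (25.3% higher and 18.8% lower). At an unadjusted p under 0.05 the Cxxc1-null test gave 14 higher members and 1 lower, where 27.8% and 22.9% of all genes were. In WT cells 15 were higher and 1 lower, against 45.0% (26.1% higher and 18.9% lower). Of the testis genes called, Adam21, Adam25 and Adam34 entered the test through their meiosis II levels only and so had to differ. Over the 19 testis genes the median log2 change was 2.01 in Cxxc1-null and 2.74 in WT cells, beside -0.01 and 0.02 over all genes tested. The abundant genes lay between -0.26 (Adam2) and 0.47 (Adam3) in Cxxc1-null cells and between -0.09 (Adam2 and Adam5) and 0.53 (Adam1b, adjusted p = 0.053) in WT cells. Without any single library, 13 to 14 members were called in Cxxc1-null and 13 to 17 in WT cells.

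Adam24 (testase 1), a testis protease, rose by the largest value on the log2(FPKM + 1) scale in both genotypes. By ratio of mean FPKM, the largest among the testis genes were Adam34 in WT cells (59.1, Adam24 28.9) and Adam21 in Cxxc1-null cells (11.8, Adam24 9.48). It had 30.1 and 29.5 FPKM in Cxxc1-null meiosis II against 1.70 and 4.59 FPKM in Cxxc1-null diplotene, and 53.8 and 30.9 FPKM in WT meiosis II against 1.79 and 1.14 FPKM in WT diplotene. All meiosis II libraries lay far above all diplotene ones, and the change was 2.99 ± 0.37 in Cxxc1-null (adjusted p = 0.00019) and 4.10 ± 0.37 in WT cells (2.7e-05). Adam1a (fertilin alpha, a form retained in the endoplasmic reticulum) had 25.2 and 23.5 FPKM in Cxxc1-null meiosis II against 1.92 and 5.09 FPKM in Cxxc1-null diplotene, and 36.1 and 28.5 FPKM in WT meiosis II against 1.28 and 1.37 FPKM in WT diplotene. No diplotene library reached a meiosis II value, and the gene rose by 2.59 ± 0.31 in Cxxc1-null (0.00017) and 3.83 ± 0.31 in WT cells (2.2e-05). Its neighbour Adam1b, whose promoter is shown beside that of Adam1a, was at -0.16 ± 0.20 in Cxxc1-null and 0.53 ± 0.20 in WT cells over this step.

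The other testases and low testis genes changed likewise. In Cxxc1-null cells the log2 change was 2.48 ± 0.33 for Adam26a (adjusted p = 0.00029), 2.33 ± 0.31 for Adam29 (0.00029), 2.11 ± 0.23 for Adam25 (0.00011), 2.59 ± 0.42 for Adam6a (0.00087) and 1.89 ± 0.27 for Adam21 (0.00043). In WT cells it was 3.77 ± 0.33 for Adam26a (2.6e-05), 3.78 ± 0.31 for Adam29 (2.3e-05), 3.10 ± 0.23 for Adam25 (1.9e-05), 3.15 ± 0.42 for Adam6a (0.00021) and 2.93 ± 0.27 for Adam21 (3.2e-05). The remaining 5 (Adam4, Adam6b, Adam26b, Adam34 and Adam39) lay between 1.86 (Adam6b) and 2.26 (Adam4) in Cxxc1-null cells and between 2.70 (Adam4) and 3.36 (Adam39) in WT cells. On the FPKM scale, the meiosis II mean was 5.63 to 11.8 times the diplotene mean in Cxxc1-null cells (median 7.81) and 14.5 to 59.1 times in WT cells (median 27.4). With replicate 1 of Cxxc1-null diplotene alone, the Cxxc1-null ratios were 8.74 to 34.5 (median 15.6). The ratios of Cxxc1-null cells were thus larger without the diplotene library that stood apart. The difference between the genotypes' steps was called for 0 of 25 members by limma (7 members at an unadjusted p under 0.05, all smaller in Cxxc1-null cells, where 5.29% of all genes were; smallest adjusted p = 0.37, Adam29). The round spermatid markers moved with these genes, by a median of 3.0 in Cxxc1-null and 4.22 in WT cells, and their part in the result was not tested.

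**Figure D3:**
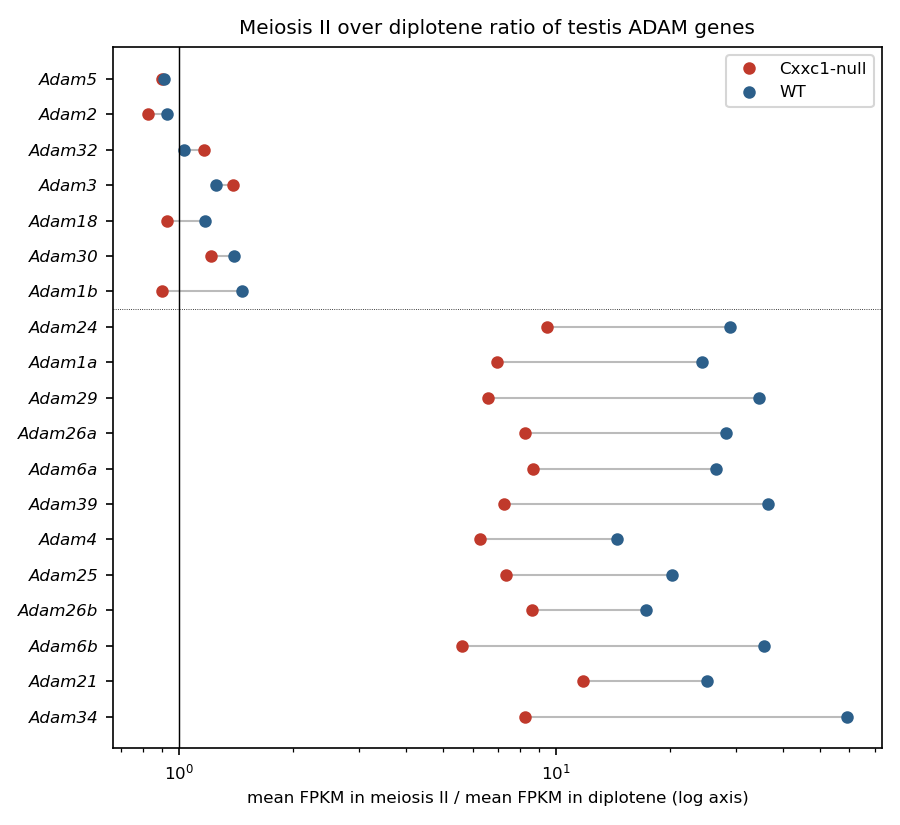
Ratio of the mean FPKM in meiosis II to that in diplotene (x axis, log scale) for the 19 testis ADAM genes, Cxxc1-null and WT marked separately. The 7 abundant genes lie near 1, and the 12 low genes lie at 5.63 to 11.8 in Cxxc1-null and 14.5 to 59.1 in WT cells. The largest WT ratio, that of Adam34, divides by a diplotene mean of 0.120 FPKM.

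The broadly expressed sheddases went different ways at this step. Adam15 had 1.02 and 0.975 FPKM in Cxxc1-null meiosis II against 0.0250 and 0.101 FPKM in Cxxc1-null diplotene, and 2.55 and 1.30 FPKM in WT meiosis II against 0.0540 and 0.10 FPKM in WT diplotene. It rose by 0.91 ± 0.19 in Cxxc1-null (adjusted p = 0.0031) and 1.41 ± 0.19 in WT cells (0.0002), and it too was tested only because of its meiosis II levels. Adam10 rose by 0.82 ± 0.23 in both genotypes (0.014 in each). It lost both calls with quantile normalization and the WT call with a common median, without replicate 1 of WT diplotene and without replicate 1 of WT meiosis II. It lost the Cxxc1-null call without replicate 2 of Cxxc1-null diplotene or replicate 1 of Cxxc1-null meiosis II. Adam9 rose by 0.64 ± 0.23 in WT cells (0.045) and was at 0.50 ± 0.23 in Cxxc1-null cells (0.11). The Adam9 call was lost, or the gene left untested, in 14 of 23 alternatives. Adam17 was the most abundant of the 4, at 7.39 and 7.44 FPKM in Cxxc1-null against 6.87 and 7.17 FPKM in WT pachytene, 5.26 and 4.65 against 6.82 and 3.66 in diplotene, and 3.79 and 2.73 against 2.98 and 1.64 in meiosis II. Its values declined over the 3 stages in both genotypes, and between meiosis II and diplotene it fell by 0.90 ± 0.29 in WT cells (0.030), with -0.49 ± 0.29 in Cxxc1-null cells (0.21). The WT call of Adam17 was lost with no filter, with rescaling to a common sum, when the 2 WT groups were fitted alone, and without replicate 1 of WT diplotene or replicate 2 of WT meiosis II. The Sertoli markers given above were also highest in the meiosis II libraries, and their part in the changes of Adam9, Adam10 and Adam15 was not tested.

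**Figure D4:**
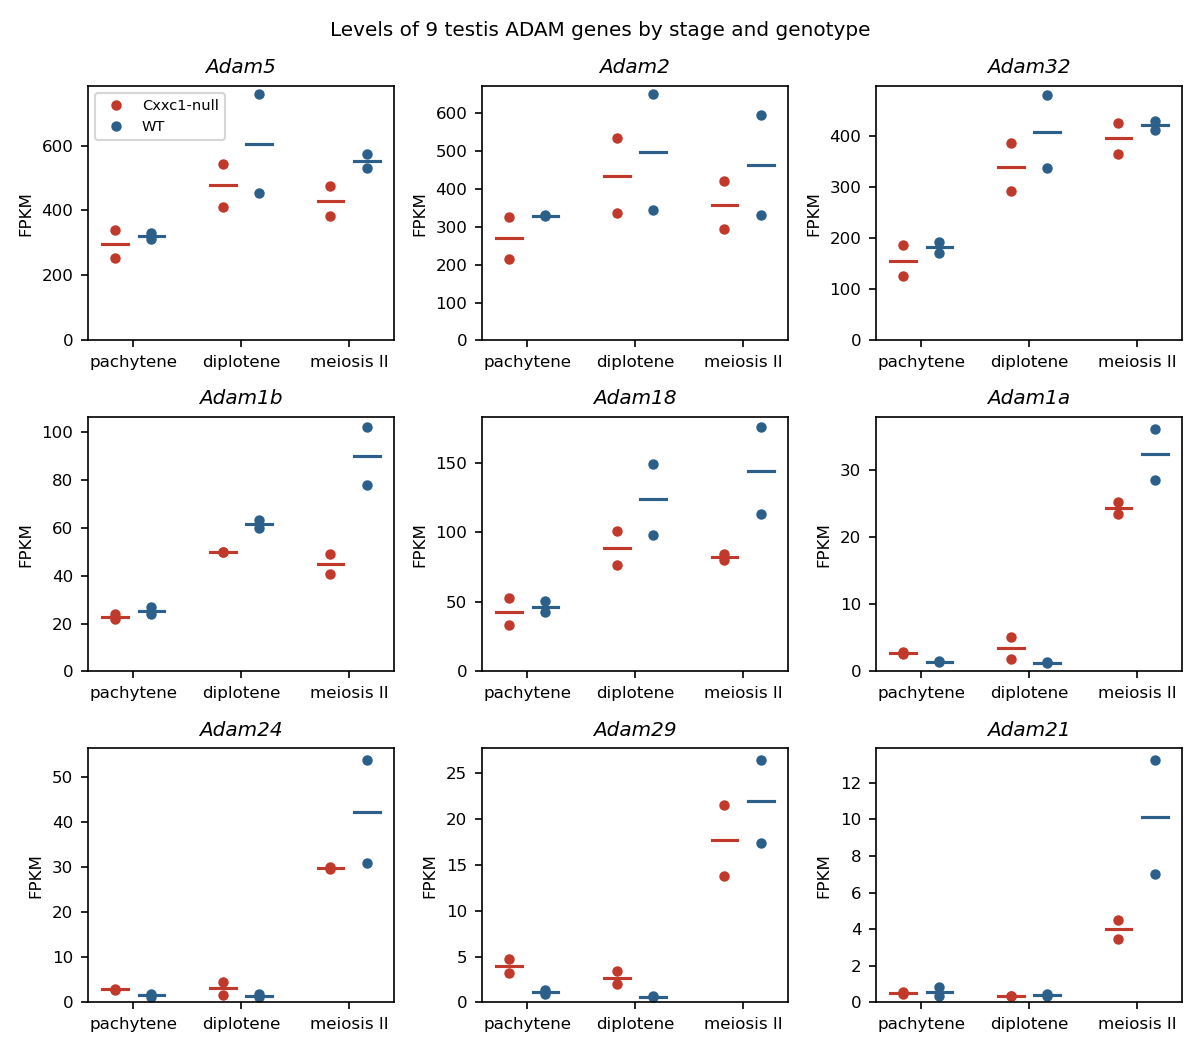
FPKM of 9 testis ADAM genes by stage, each point 1 library and each bar the mean of 2, Cxxc1-null left of WT. Adam5, Adam2, Adam32, Adam18 and Adam1b are present from pachytene on, and Adam1a, Adam24, Adam29 and Adam21 are high in meiosis II only. In meiosis II the Cxxc1-null points of Adam1b (49.2 and 40.5 FPKM) lie under the WT points (102 and 77.8 FPKM).

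Between the genotypes, most ADAM genes did not pass the test at any stage. In meiosis II, 2 of the 25 members tested were lower in Cxxc1-null cells and 0 were higher, against a background of 10.5% of all genes called (4.35% lower and 6.14% higher). At an unadjusted p under 0.05, 6 members were lower and 0 were higher, where 11.6% and 14.5% of all genes tested were. Adam1b, the fertilin alpha of the sperm surface, had 49.2 and 40.5 FPKM in Cxxc1-null (44.8 ± 6.09, SD, n = 2) against 102 and 77.8 FPKM in WT meiosis II cells (90.0 ± 17.3). In pachytene it had 24 and 21.8 FPKM in Cxxc1-null against 24 and 26.8 FPKM in WT cells, and in diplotene 49.7 and 50.0 against 59.9 and 63.1. The Cxxc1-null libraries were thus level with or just under WT in pachytene, below both WT libraries in diplotene and far below both in meiosis II, where the ratio of the means was 0.498. In meiosis II the gene fell by 0.98 ± 0.20 on the log2 scale (limma, adjusted p = 0.015), a call held in 20 of 23 alternatives (adjusted p 0.012 to 0.12). Adam21, a testis member whose promoter window held 0 CpG, had 3.47 and 4.51 FPKM in Cxxc1-null against 13.2 and 7.03 FPKM in WT meiosis II cells and was under 1 FPKM in all other libraries. It fell by 1.11 ± 0.27 (0.030), a call held in 17 of 23 alternatives (0.019 to 0.18). Both calls were lost without replicate 1 of WT meiosis II, which was the higher WT library for both genes (-0.79 for Adam1b and -0.69 for Adam21 without it), and without replicate 2 of Cxxc1-null meiosis II, and the Adam21 call was also lost without replicate 1 of Cxxc1-null meiosis II.

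Other members pointed the same way in meiosis II without passing the threshold. Adam26a (testase 3) had 12.4 and 12.1 FPKM in Cxxc1-null against 34.1 and 18.8 FPKM in WT cells, a log2 difference of -0.99 ± 0.33 (adjusted p = 0.088). Adam18 had 84.3 and 80.4 FPKM against 176 and 113 FPKM (-0.77 ± 0.31, 0.14), and Adam25 (testase 2) had 7.28 and 8.92 FPKM against 16.4 and 10.7 FPKM (-0.66 ± 0.23, 0.10). In these 3 genes no Cxxc1-null library reached the lower WT library. Of the 19 testis genes, 18 had a log2 difference under 0 and 11 had both Cxxc1-null libraries below both WT libraries, where 26.4% of all genes tested did; 0 had both above, where 30.1% did. The median over the 19 was -0.39, beside 0.02 over all genes tested. It depended on 1 library: without replicate 1 of WT meiosis II, 6 of the 7 abundant genes (median -0.32) and 8 of the 12 low genes (median -0.13) were below 0. The round spermatid markers, whose sums were lower in Cxxc1-null than in WT meiosis II libraries, had a median difference of -0.33 with 0 of 14 called, and their part in the result was not tested.

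In pachytene 0 of 25 members passed the test, against a background of 0.355%. At an unadjusted p under 0.05, 3 were higher in Cxxc1-null cells, where 8.07% of all genes tested were. Adam29, a testis gene of chromosome 8, had 3.22 and 4.74 FPKM in Cxxc1-null against 1.34 and 0.919 FPKM in WT pachytene cells (1.22 ± 0.31, adjusted p = 0.17, range over the alternatives 0.084 to 0.65). Adam6a, which lies beside the immunoglobulin heavy chain genes and is needed for male fertility in mice together with Adam6b, had 2.29 and 1.43 FPKM against 0.261 and 0.0699 FPKM (1.29 ± 0.42, 0.29). Adam22, a brain receptor without protease activity, had 0.889 and 0.718 FPKM against 0.226 and 0.445 FPKM (0.44 ± 0.18, 0.43). In all 3 the Cxxc1-null libraries lay above both WT libraries. Of the 12 low testis genes, 11 had a Cxxc1-null mean above the WT mean (median ratio 2.40; 2.31 with replicate 1 of WT pachytene alone), and 6 of the 7 abundant genes had a mean below it (median ratio 0.922; 4 of 7 below and 0.952 with that library alone). Under quantile normalization the low genes were above 0 in 10 of 12. Of the 19 testis genes, 9 had both Cxxc1-null libraries above both WT libraries and 2 had both below, beside 24.1% and 13.3% of all genes tested.

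In diplotene 0 of 25 members passed the test, against a background of 0.787%. At an unadjusted p under 0.05, 4 were higher in Cxxc1-null cells, where 10.3% of all genes tested were. Adam29 had 2.0 and 3.38 FPKM in Cxxc1-null against 0.701 and 0.573 FPKM in WT diplotene cells (1.15 ± 0.31, adjusted p = 0.12, range over the alternatives 0.043 to 0.59). Adam22 had 1.52 and 1.42 FPKM against 0.692 and 0.552 FPKM (0.61 ± 0.18, 0.17), and Adam1a had 1.92 and 5.09 FPKM against 1.28 and 1.37 FPKM (0.86 ± 0.31, 0.25). No Cxxc1-null library overlapped a WT library in these genes, but the higher Adam29 and Adam1a values were those of the library that stood apart. Without it the differences were 0.87 for Adam29, 0.64 for Adam22 and 0.33 for Adam1a, with adjusted p of 0.59, 0.51 and 0.84. Of the 12 low testis genes, 11 had a Cxxc1-null mean above the WT mean, and 8 did with replicate 1 alone (median ratio 2.39 and 1.41). All 7 abundant genes had a mean below that of WT, and 6 did with replicate 1 alone (0.811 and 0.943). Both Cxxc1-null libraries lay above both WT libraries in 7 of the 19 testis genes and below them in 2, where 30.4% and 15.2% of all genes tested did.

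**Figure D5:**
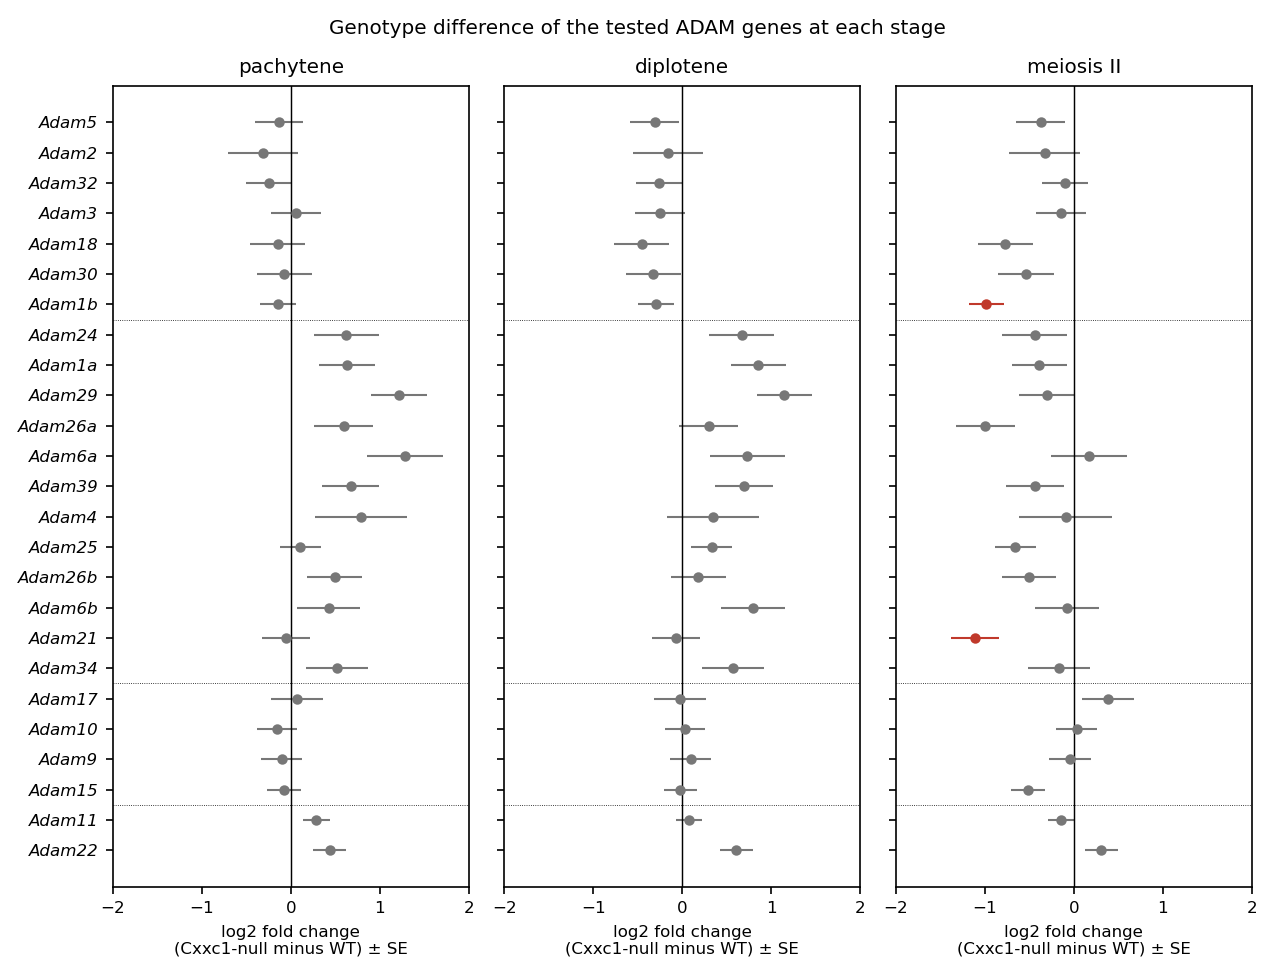
Log2 difference, Cxxc1-null minus WT, with its SE (bars) for the 25 ADAM genes tested at each stage, on log2(FPKM + 1). Red marks an adjusted p under 0.05, which Adam1b (-0.98) and Adam21 (-1.11) have in meiosis II. The low testis genes lie mostly to the right of 0 in pachytene and diplotene and to the left in meiosis II.

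Averaged over the stages, 3 members passed the test, against a background of 16.7% of all genes. Adam22 rose by 0.45 ± 0.11 (adjusted p = 0.018) and Adam29 by 0.69 ± 0.18 (0.029), where 11.5% of genes were higher, and Adam1b fell by 0.47 ± 0.12 (0.022), where 5.13% were lower. Adam22 had 1.77 and 1.57 FPKM in Cxxc1-null against 1.48 and 0.864 FPKM in WT meiosis II cells, so its Cxxc1-null libraries lay above both WT libraries at all 3 stages. Adam29 had 13.8 and 21.6 FPKM against 26.5 and 17.4 FPKM in meiosis II, where its genotypes overlapped. Without both libraries that stood apart, the Adam22 call remained and those of Adam29 and Adam1b were lost. The Adam22 call was lost with quantile normalization and with rescaling to a common sum. Those of Adam29 and Adam1b were also lost without replicate 1 of WT diplotene and without replicate 2 of Cxxc1-null pachytene, diplotene or meiosis II. Leaving out replicate 2 of WT pachytene or of WT meiosis II ended the Adam29 call, and leaving out replicate 1 of WT meiosis II ended that of Adam1b. Over the alternatives the adjusted p was 0.015 to 0.077 for Adam22, 0.011 to 0.11 for Adam29 and 0.013 to 0.081 for Adam1b, and all 3 calls were lost without replicate 2 of WT diplotene and when libraries of a genotype and replicate number were treated as correlated (adjusted p of 0.077 for Adam22, 0.070 for Adam29 and 0.081 for Adam1b).

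In 10 of the 12 low testis genes the Cxxc1-null mean was above the WT mean in pachytene and below it in meiosis II. Adam21 was below WT and Adam6a above it at both stages. The same count over all genes tested is not given here. It leaned on replicate 1 of WT meiosis II. Against replicate 2 of WT meiosis II alone, the Cxxc1-null mean FPKM of Adam4, Adam6b, Adam29 and Adam34 was above WT (17.7 against 17.4 for Adam29). Whether the genotype difference changed with stage was tested as an interaction. limma's F test of the genotype by stage terms called 0 of 25 members, against a background of 0.0540%, and 6 had an unadjusted p under 0.05, where 8.77% of genes did. The 3 smallest F test p belonged to Adam29, Adam26a and Adam25, with limma adjusted p of 0.33, 0.39 and 0.49. Their difference in meiosis II minus that in pachytene was -1.52 ± 0.44, -1.59 ± 0.47 and -0.76 ± 0.33 (log2, SE). This difference was under 0 for 21 of the 25 members tested (median -0.62). Over all genes tested its median was -0.04, and it was above 0 for 6102 of 12956. Adam1a, Adam24, Adam26a, Adam26b and Adam39 had both Cxxc1-null libraries above both WT libraries in pachytene and below both in meiosis II, 5 of the 19 testis genes, beside 2.80% of all genes tested. Round spermatid markers had median differences of 0.57 in pachytene and -0.33 in meiosis II, and their members were split. In pachytene 10 of 14 had a higher Cxxc1-null mean and 4 (Prm1, Prm2, Tnp1 and Tssk6) a lower one, with sums of 1456 to 2188 FPKM in Cxxc1-null against 2001 to 2251 FPKM in WT libraries. In meiosis II 11 had a lower Cxxc1-null mean and 3 (Spaca1, Tssk1 and Catsper3) a higher one. Their part in the result was not tested. The 4 broadly expressed members had median differences of -0.09, 0.01 and -0.00 in the 3 stages, and limma called 0 at any stage or on average; at an unadjusted p under 0.05 the count was 1, Adam15 in meiosis II (-0.51 ± 0.19, adjusted p = 0.12).

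Of the members not tested, all were under 1 FPKM in every library. Adam28, a lymphocyte member, reached 0.815 FPKM, Adam19 and Adam12 (the meltrins) 0.750 and 0.269, Adam8, a leukocyte member, 0.636, and Adam23, a brain relative of Adam22, 0.293. Adam33 was listed at 0 in 8 libraries and reached 0.121 FPKM in Cxxc1-null meiosis II, and the epididymis gene Adam7 was listed at 0 in 9 libraries with at most 0.0482 FPKM. With the filter of 1 FPKM in 2 libraries, these 7 genes entered no comparison. Without a filter, Adam19 was called higher in Cxxc1-null than in WT cells averaged over stages. It was also called higher in Cxxc1-null diplotene than in Cxxc1-null pachytene. Adam33 was then called higher in Cxxc1-null meiosis II than in Cxxc1-null diplotene, and Adam8 lower in WT diplotene than in WT pachytene.

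Genes for the handling of ADAM proteins were followed on 2 lists. Of 15 genes listed for the maturation of sperm ADAM proteins, 14 were measured and tested. In each stage limma called 0 of the 14 between the genotypes. At an unadjusted p under 0.05, 5 were higher in Cxxc1-null cells in pachytene, where 8.07% of all genes tested were, 4 were higher in diplotene, where 10.3% were, and 1 was lower in meiosis II, where 11.6% were. On average 3 were higher in Cxxc1-null cells, where 11.5% of all genes were: Lypd4 (0.39 ± 0.12, adjusted p = 0.048), the ADAM3 chaperone Pdilt (0.88 ± 0.27, 0.049) and Tmem190 (1.33 ± 0.32, 0.021), a sperm protein whose place on this list is uncertain. Tmem190 had 57.8 and 68.9 FPKM in Cxxc1-null against 17.6 and 12.0 FPKM in WT pachytene cells, 22.8 and 85.6 against 9.53 and 16.8 in diplotene, and 318 and 644 against 468 and 324 in meiosis II. The genotypes of Tmem190 were apart in pachytene and diplotene and overlapped in meiosis II. Pdilt had 3.74 and 14.6 FPKM in Cxxc1-null against 1.99 and 2.08 FPKM in WT diplotene cells. In meiosis II it had 59.3 and 75.2 against 102 and 62.6 FPKM. The higher Cxxc1-null diplotene values of Tmem190 and Pdilt were those of the library that stood apart, and the averaged calls are given only with it. Clgn, the chaperone that pairs fertilin alpha and beta, rose from pachytene to diplotene with the abundant members, by 1.05 ± 0.27 in Cxxc1-null (0.017) and 0.87 ± 0.27 in WT cells (0.035). At that step 1 gene rose and 3 fell in Cxxc1-null cells, against the background of 11.9% higher and 17.4% lower, and 2 rose and 2 fell in WT cells, against 9.08% and 17.4%. Tex101, a germ cell surface protein needed for ADAM3, had 415 and 442 FPKM in Cxxc1-null diplotene against 1434 and 1511 FPKM in Cxxc1-null pachytene, and 458 and 396 FPKM in WT diplotene against 2025 and 1586 FPKM in WT pachytene, and fell by 1.78 ± 0.21 in Cxxc1-null (0.0018) and by 2.07 ± 0.21 in WT cells (0.00067). Between meiosis II and diplotene 6 rose and 3 fell in each genotype, against 25.3% higher and 18.8% lower in Cxxc1-null and 26.1% and 18.9% in WT cells. In Cxxc1-null cells Pdilt rose by 2.98 ± 0.47 (0.00069) and Tmem190 by 3.32 ± 0.55 (0.00098). Ace, whose testis form is needed for the placement of ADAM3 on sperm, rose by 2.31 ± 0.47 (0.0028). All 3 had their higher Cxxc1-null diplotene value in the library that stood apart (3.02 and 8.81 FPKM for Ace). In WT cells Pdilt rose by 4.74 ± 0.47 (4.1e-05), Tmem190 by 4.83 ± 0.55 (8.7e-05) and Ace by 3.61 ± 0.47 (0.00017). Tex101 fell by 3.58 ± 0.21 in Cxxc1-null (1.2e-05) and fell by 3.5 ± 0.21 in WT cells (1.7e-05).

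Of 18 genes listed as partners, activators or inhibitors of Adam10 and Adam17, 9 passed the low-level filter. In each stage limma called 0 of these between the genotypes (at an unadjusted p under 0.05, 1 was higher in Cxxc1-null cells in pachytene and 2 in meiosis II, where 8.07% and 14.5% of all genes were, and 0 differed in diplotene). On average Timp1, an inhibitor of metalloproteases, was the 1 called, higher in Cxxc1-null cells (0.78 ± 0.22, adjusted p = 0.035), where 11.5% of all genes were. Its level was 0.103 to 2.81 FPKM in Cxxc1-null libraries, against 0.630 and 0.0976 FPKM in WT meiosis II libraries and a listed 0 in the 4 WT pachytene and diplotene libraries. From pachytene to diplotene, where Adam10 fell, its escorts Tspan5 and Tspan33 and the Adam17 cofactor Frmd8 rose in both genotypes, 3 of 9 against 11.9% of all genes in Cxxc1-null and 9.08% in WT cells. In Cxxc1-null cells Tspan33 rose by 1.13 ± 0.26 (0.013), Frmd8 by 1.08 ± 0.27 (0.017) and Tspan5 by 0.74 ± 0.21 (0.026). In WT cells Tspan33 rose by 0.82 ± 0.26 (0.043), Frmd8 by 0.99 ± 0.27 (0.024) and Tspan5 by 1.03 ± 0.21 (0.0075). The escorts Tspan14, Tspan15 and Tspan17 had lower means in diplotene than in pachytene. These were 0.0580 against 0.469, 0.150 against 0.672 and 0.477 against 0.805 FPKM in Cxxc1-null cells. The WT means were 0 against 0.701, 0.245 against 0.684 and 0.235 against 0.482 FPKM. Tspan17 was tested and not called, and Tspan14 and Tspan15 did not pass the filter. Tspan10 had at most 0.0845 FPKM at these stages. Between meiosis II and diplotene 4 rose and 2 fell in Cxxc1-null cells, against 25.3% and 18.8%, and 3 rose and 2 fell in WT cells, against 26.1% and 18.9%. The inhibitor Timp2 rose by 1.76 ± 0.22 (0.00019), the escort Tspan17 rose by 1.47 ± 0.21 (0.00046) and the convertase Pcsk7 fell by 1.23 ± 0.28 (0.0055) in Cxxc1-null cells. In WT cells Timp2 rose by 1.93 ± 0.22 (7.7e-05), Tspan17 rose by 1.79 ± 0.21 (0.00011) and Pcsk7 fell by 1.02 ± 0.28 (0.014).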

How the data were processed

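Expression was measured in 12 RNA libraries, grouped from their titles. The authors deposited 1 table of FPKM values, which are not counts, for 23235 genes. Per the submitters' processing notes, TopHat2 2.1.1, Cufflinks 2.2.1 and the mm9 build were used. The number of sequenced fragments and the strandedness of the counting are not given in the sources used here. Overlapping genes are therefore uncertain, and no intervals that need depth are given. All columns were used.

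On the log2(FPKM + 1) scale, 12956 genes entered the test, having reached 1 FPKM in 2 or more libraries, and 25 of the 32 members were among them. limma 3.58.1 (R 4.3.3) fitted a mean per stage and genotype to all 12 libraries (6 residual degrees of freedom), with a trend of variance on level, and p-values were adjusted by Benjamini-Hochberg over all genes tested. The procedure was tested on simulated data. A gene was called at an adjusted p under 0.05. Values in parentheses after a first adjusted p are adjusted p from the same test. Ratios are of group means of FPKM, with no test.

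Members called in a comparison are named, the 12 of smallest p in a direction where more pass, and the 3 of smallest p where fewer than 3 pass; partner genes past the threshold are named up to 4 per comparison. Values of Adam15, Adam18 and Adam25 between the genotypes and of Adam1b, Adam4, Adam9 and Adam10 between meiosis II and diplotene were added to account for members. The members and lists were chosen with earlier results of these data known. Alternatives were the pseudocount, the filter, 3 other scalings, separate fits, a replicate block, correlated libraries, no variance trend and leaving out libraries. The ratios with replicate 1 alone were added after seeing the data. Promoter windows come from RefSeq, GRCm38.p6, matched by symbol; no coordinate of the deposited table was used.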

Additional observations from a re-analysis of the deposited data

How the results depend on the processing

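With 2 libraries a group, single libraries set several counts. Of the members named by p in each comparison, none had a fold change that reversed under any of the 23 alternatives. Other members did reverse, as Adam34 did between the genotypes in meiosis II without replicate 1 of WT meiosis II. The members' median in diplotene also reversed under 2 scalings, given with the scalings. Of the values of the named members and of Cxxc1 itself, 1273 stayed on their side of the threshold, 88 lost and 2 gained a call. Members called between Cxxc1-null and WT numbered 0 in pachytene under every alternative. In diplotene 1 was called with a pseudocount of 0.1 (Adam29), and 0 to 1 when each library was left out (1 without replicate 1 of Cxxc1-null diplotene). In meiosis II, where 2 were called, 1 remained with a pseudocount of 0.1 or a filter of 5 FPKM (Adam1b in both), 0 with a separate fit, and 0 to 3 when each library was left out. Averaged over stages, where 3 were called, 0 were called with stages joined by genotype and replicate number, 1 without both libraries that stood apart, and 0 to 5 when each library was left out. Between diplotene and pachytene, leaving out each library gave 0 to 7 members in Cxxc1-null cells and 4 to 9 in WT cells, and a separate fit gave 0 in WT cells. Between meiosis II and diplotene 12 to 16 members were called in Cxxc1-null and 13 to 17 in WT cells over all alternatives, and the interaction test called 0 under every one it was run with. The cause of these changes was not tested.

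Replicate numbers are shared across groups. Deviations of same-numbered libraries correlated by 0.12 to 0.42 between stages of a genotype and by -0.07 to 0.32 between Cxxc1-null and WT of a stage. The 0.32 was that of diplotene and lies within the range between stages. These correlations therefore cannot decide whether the numbers pair the genotypes. Whether the numbers join stages within a genotype is not in the labels. With stages joined in this way, all 3 averaged calls were lost. With the replicate block, 0 members were called in pachytene, 0 in diplotene and 2 in meiosis II between the genotypes, 4 on average, 9 in each genotype between diplotene and pachytene, 16 in Cxxc1-null and 17 in WT cells between meiosis II and diplotene, and 0 in the interaction test.

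Other scalings moved the median of all genes by more than 0.1 on the log2 scale in 5 comparisons. With a common median the shift was -0.13 in diplotene between Cxxc1-null and WT, 0.11 in Cxxc1-null and 0.20 in WT cells between diplotene and pachytene, and -0.11 in Cxxc1-null and -0.30 in WT cells between meiosis II and diplotene. The median of the members in diplotene between Cxxc1-null and WT was -0.04 with a common median and -0.13 with quantile normalization, against 0.10 as deposited. Depth limits values under 1 FPKM. Genes that did not reach 1 FPKM in 2 libraries were not tested. A tested gene could still be under 1 FPKM in the groups compared, as Adam34 was in WT diplotene (0.155 and 0.0861 FPKM).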
